A study of Mus musculus with 8 samples.

Results

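Mitochondrial ribosomal proteins are the protein subunits of the ribosome that works inside mitochondria. They were followed here in soleus, a calf muscle with many slow fibres, from Ts65Dn mice (a model of Down syndrome) and from wild-type mice. The genes were taken by symbol: Mrpl (large subunit) or Mrps (small subunit) followed by a number, on probe sets annotated to 1 gene. This gave 77 of the 19938 genes tested, 48 Mrpl and 29 Mrps, on 85 probe sets. Of these genes 8 have more than 1 probe set, and each is represented by the brightest of them. Mrpl53 shares its probe set with Ccdc142 and was left out. Mrpl39 and Mrps6 lie in the segment of mouse chromosome 16 (MMU16) that Ts65Dn mice carry in 3 copies, and the other 75 genes are present in 2 copies.

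The Ts65Dn group held 4 male mice, and the WT group held 4 male wild-type colony controls of strain B6EiC3SnF1/J, a mix of B6 and C3H backgrounds. All were 5 months old and their muscles were taken in the basal state, under sodium pentobarbital anaesthesia, with 1 array per mouse. In Ts65Dn mice a freely segregating marker chromosome gives the extra copy of the distal end of MMU16 together with the centromeric end of MMU17, so that genes of both segments are in excess in every tissue of the animal. Values are log2 RMA values of Affymetrix arrays, and groups were compared with limma, with p-values adjusted by Benjamini-Hochberg over all 19938 genes and a threshold of 0.05. A fold change is the mean log2 value of Ts65Dn minus that of WT throughout.

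The mitochondrial ribosome translates the few messenger RNAs made from mitochondrial DNA, which encode core subunits of the respiratory chain and of ATP synthase. Its ribosomal RNAs come from mitochondrial DNA, while all its proteins are encoded in the nucleus, made in the cytosol and imported. Many of these proteins have a counterpart in bacterial ribosomes and others are particular to mitochondria. Slow muscle is rich in mitochondria and depends on this machinery for oxidative metabolism.

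The arrays differed between groups before any gene was considered. Array medians ran from 4.23 to 4.29 in Ts65Dn and from 4.37 to 4.56 in WT, and interquartile ranges from 3.01 to 3.12 and from 2.62 to 2.93, with WT arrays 2 and 3 the narrowest. The muscle fibre markers Acta1, Ckm, Mb, Des and Ttn had log2 values from 10.37 to 12.56 on all arrays, and the slow-fibre markers Myh7, Tnnt1, Tnni1, Tnnc1 and Myl3 from 9.85 to 12.43. The fast-fibre markers Myh2, Myh1, Tnnt3 and Tnni2 ran from 10.37 to 12.55, and Myh4 from 5.89 to 10.52. Ts65Dn array 4, which held the Myh4 value of 10.52, had a mean over these 5 fast-fibre markers of 11.62. The other Ts65Dn arrays were at 10.67 to 10.96 and the WT arrays at 10.59 to 10.79. The median over the same 5 markers was 11.66 on Ts65Dn array 4. It was 11.57 to 11.70 on the other Ts65Dn arrays and 11.35 to 11.68 in WT. The mean over 5 endothelial markers was 6.13 to 6.44 in Ts65Dn against 5.12 to 5.75 in WT, that over 5 macrophage markers 4.88 to 5.52 against 4.30 to 4.65, and that over 5 fibroblast markers 6.87 to 7.07 against 6.59 to 6.76. Of these 15 markers Kdr, Emcn, Cd68 and Pdgfra passed the test as higher, beside 2.32% of all genes. Without WT arrays 2 and 3, 0 of them passed, but so few arrays let only 1 of all 19938 genes pass. With level matching Kdr and Pdgfra passed and Emcn and Cd68 did not, beside 0.451% of all genes that passed. Cd68 had a fold change of 2.39, while the other 4 macrophage markers ran from -0.05 (Adgre1) to 0.31 (Mrc1), and the fibroblast collagens Col1a1 and Col3a1 were at -0.35 and -0.06. The part of these markers in the values below was not tested, and in whole muscle a change in the share of a cell type and a change in RNA per cell cannot be told apart.

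Promoters of the genes the results turn on are shown first, because subunit genes are known as targets of the nuclear factors NRF1, GABP and YY1. RefSeq windows of 300 bases (250 before to 50 after the start, build GRCm38.p6) matched 68 of the 77 genes and gave 74 windows. The letters GCGCA and GCGC with any 1 base between them for NRF1, CCGGAAG for GABP and AAGATGG for YY1 were searched on both strands, and no 2 of these motifs overlapped in any of the 74 windows. Capitals mark a match. Mrpl39 and Mrps6 are shown as the genes in 3 copies, and Mrps16 as the subunit with the smallest p in the comparison of the groups. Mrpl39 is at chr16:84735195-84735494 on the minus strand, Mrps6 at chr16:92058086-92058385 on the plus strand and Mrps16 at chr14:20393441-20393740 on the minus strand.
Mrpl39: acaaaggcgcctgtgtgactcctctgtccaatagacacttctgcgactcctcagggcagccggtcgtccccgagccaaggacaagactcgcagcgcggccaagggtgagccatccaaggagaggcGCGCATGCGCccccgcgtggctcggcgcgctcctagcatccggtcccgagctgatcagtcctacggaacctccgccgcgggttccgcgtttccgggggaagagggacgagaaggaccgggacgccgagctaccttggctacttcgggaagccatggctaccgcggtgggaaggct
Mrps6: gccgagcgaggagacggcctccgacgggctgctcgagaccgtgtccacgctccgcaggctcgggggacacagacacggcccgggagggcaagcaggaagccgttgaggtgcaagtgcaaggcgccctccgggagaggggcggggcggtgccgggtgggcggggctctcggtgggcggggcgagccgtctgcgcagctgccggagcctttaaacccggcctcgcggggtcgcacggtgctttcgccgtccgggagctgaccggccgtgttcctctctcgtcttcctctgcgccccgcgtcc
Mrps16: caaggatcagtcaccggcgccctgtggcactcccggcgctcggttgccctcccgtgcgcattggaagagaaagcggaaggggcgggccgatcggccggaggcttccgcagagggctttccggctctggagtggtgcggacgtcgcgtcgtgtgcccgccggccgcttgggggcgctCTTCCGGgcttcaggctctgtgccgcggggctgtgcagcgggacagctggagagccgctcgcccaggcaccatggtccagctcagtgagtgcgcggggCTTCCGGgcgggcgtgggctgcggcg
The Mrpl39 window holds 1 match to the NRF1 letters, the Mrps16 window shown 2 to the GABP letters on the reverse strand, and the Mrps6 window none of the 3. A second Mrps16 window, at chr14:20393585-20393884, holds none either. Over all 74 windows, 25 (33.8%) held the GABP letters, 13 (17.6%) the NRF1 letters and 13 (17.6%) the YY1 letters. Of all 32851 promoter windows of this length, 8.86%, 4.60% and 6.34% held them. The subunit windows were also richer in G and C, with a median of 58.5% against 52.7%. A match is a description of the letters and not a site of binding. Gabpa, which encodes a subunit of GABP and is itself in 3 copies, had a fold change of 0.83 (limma adjusted p = 0.0732), while Nrf1 (0.05, limma adjusted p = 0.799) and Yy1 (0.08, limma adjusted p = 0.680) were close to 0. With level matching, a scaling defined below, Gabpa was at 0.58, Nrf1 at 0.30 and Yy1 at -0.27. Without WT array 3 Gabpa was at 0.51 and Nrf1 at -0.04. Without WT arrays 2 and 3 Gabpa was at 0.37 (limma adjusted p = 0.223), Nrf1 at -0.08 and Yy1 at 0.02.

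The first comparison asked whether Mrpl39 and Mrps6, with their extra copy, stood higher than in WT, alone and relative to the diploid subunits. Mrpl39, a subunit of the large particle that has no bacterial counterpart and resembles threonyl-tRNA synthetase in part, was at 10.10, 10.17, 10.33 and 10.12 in Ts65Dn arrays 1 to 4 and at 9.80, 9.65, 10.20 and 10.10 in WT arrays 1 to 4. The Ts65Dn arrays lay close together and the groups overlapped, since WT array 3 was above 3 of the 4 Ts65Dn arrays. WT arrays 1 and 2 were well below all Ts65Dn arrays and WT array 4 just below the lowest. The means were 10.18 ± 0.10 and 9.94 ± 0.26 (log2, SD, n = 4), a fold change of 0.24 with a 95% interval from -0.08 to 0.56 (limma adjusted p = 0.242). Mrpl39 did not pass the test.

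Mrps6, the small-subunit counterpart of bacterial S6, was at 7.76, 7.76, 7.68 and 7.82 in Ts65Dn and at 7.77, 7.38, 7.70 and 7.78 in WT. WT array 2 was low, and the other 3 WT arrays lay within the range of the Ts65Dn arrays. The means were 7.75 ± 0.06 and 7.66 ± 0.19 (log2, SD, n = 4), a fold change of 0.10 with a 95% interval from -0.18 to 0.37 (limma adjusted p = 0.584). Without WT arrays 2 and 3 its fold change was -0.02 and that of Mrpl39 was 0.23. The window of Mrps6 begins 14 bases from that of Slc5a3, the inositol transporter on the same strand, which is thus also in 3 copies. The probe set of Slc5a3 had a fold change of 0.23 (limma adjusted p = 0.390). Its values were low, from 3.29 to 4.22, below the median gene level of 4.72.

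A ratio of 3 copies to 2 corresponds to 0.585 on the log2 scale. Both intervals ended below it in the deposited values, but not under every scaling. With each array centred on its median the fold change was 0.44 for Mrpl39 (interval 0.13 to 0.76, limma adjusted p = 0.0796) and 0.30 for Mrps6 (interval -0.01 to 0.61, limma adjusted p = 0.169). For Mrpl39 the interval also reached above 0.585 without Ts65Dn array 1, 2 or 4 or WT array 3 or 4, with upper ends from 0.62 to 0.65. The diploid subunit of the same chromosome, Mrpl40, which lies outside the segment, was at 7.57, 8.04, 7.89 and 7.93 against 7.74, 7.98, 7.16 and 8.08, a fold change of 0.12 (limma adjusted p = 0.680).

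Set against the 75 diploid subunits on the same array, which removes what all subunits share, Mrpl39 stood 1.91, 1.97, 2.15 and 1.95 above their mean in Ts65Dn and 1.61, 1.71, 2.12 and 1.73 above it in WT. Apart from WT array 3, every WT array was below every Ts65Dn array. The difference between the groups was 0.21 (exact two-sided permutation p = 0.114, 0.229 adjusted over the 2 genes; the smallest p that 70 splits can give is 0.0286). Mrps6 stood 0.43, 0.44, 0.50 and 0.35 below the mean of the diploid subunits in Ts65Dn and 0.42, 0.56, 0.38 and 0.60 below it in WT. The values of the groups were interleaved, and the difference was 0.06 (exact two-sided permutation p = 0.343, also 0.343 adjusted over the 2 genes). Complete separation of 1 gene would give 0.0571 after adjustment over the 2 genes, so that 1 gene alone could not pass 0.05 here. For Mrpl39 the difference was 0.32 with quantile normalization (exact permutation p = 0.0286, 0.0571 adjusted), 0.31 without WT array 3 (exact permutation p = 0.0286, 0.0571 adjusted) and 0.33 without WT arrays 2 and 3 (exact permutation p = 0.0667, the smallest that 6 arrays can give). The difference was smaller, at 0.15, without Ts65Dn array 3 (exact permutation p = 0.286) or without WT array 1 (exact permutation p = 0.229). Without WT array 2 or WT array 4 it was 0.18 (exact permutation p = 0.229 for each). With cyclic loess it was 0.24 (exact permutation p = 0.114).

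**Figure D1:**
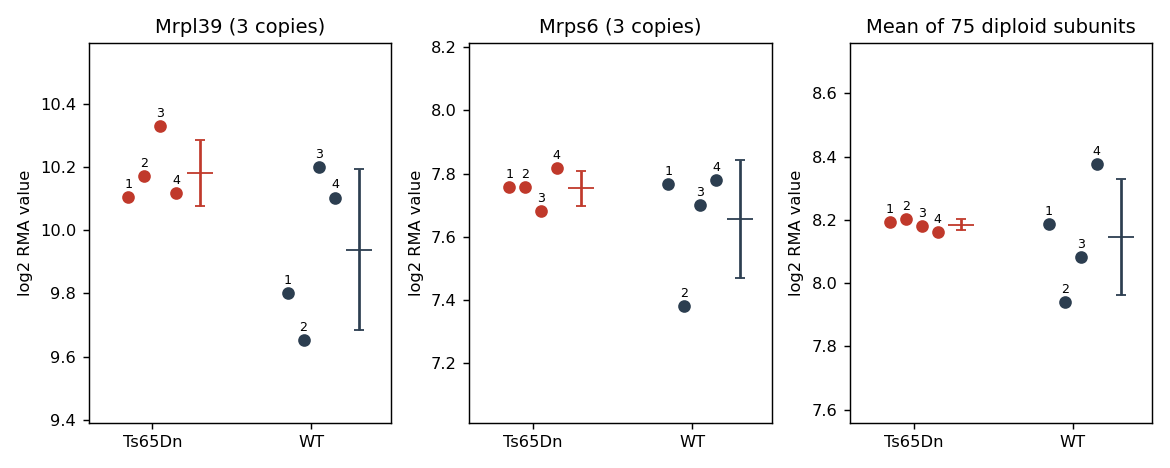
Log2 RMA values of Mrpl39, Mrps6 and the mean of the 75 diploid subunits on each of the 8 arrays, on vertical axes of equal length; points are arrays with their replicate number, and bars give the mean and SD of 4 arrays. The Ts65Dn arrays lie close together in each panel. The WT arrays spread widely for Mrpl39 and the diploid mean, while for Mrps6 only WT array 2 lies apart from the Ts65Dn arrays. WT array 2 is low in all 3 panels.

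The second comparison asked how the subunits as a family differed between the groups. Of the 77 genes, 0 passed limma's test, beside 5.26% of all genes tested (2.32% higher and 2.94% lower). An unadjusted p under 0.05 was held by 4 subunits, 1 higher and 3 lower, beside 34.8% of all genes (12.3% higher and 22.6% lower). Positive fold changes were held by 41 subunits and negative ones by 36, and 56 lay within 0.2 of 0. The median was 0.03, beside -0.10 over all genes tested and 0.11 over all genes above the median level, where all 77 subunits lie. The 95% interval of the fold change had a median half-width of 0.319, and for 62 of the 77 genes it ended below the 0.585 of a 3 to 2 ratio.

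**Figure D2:**
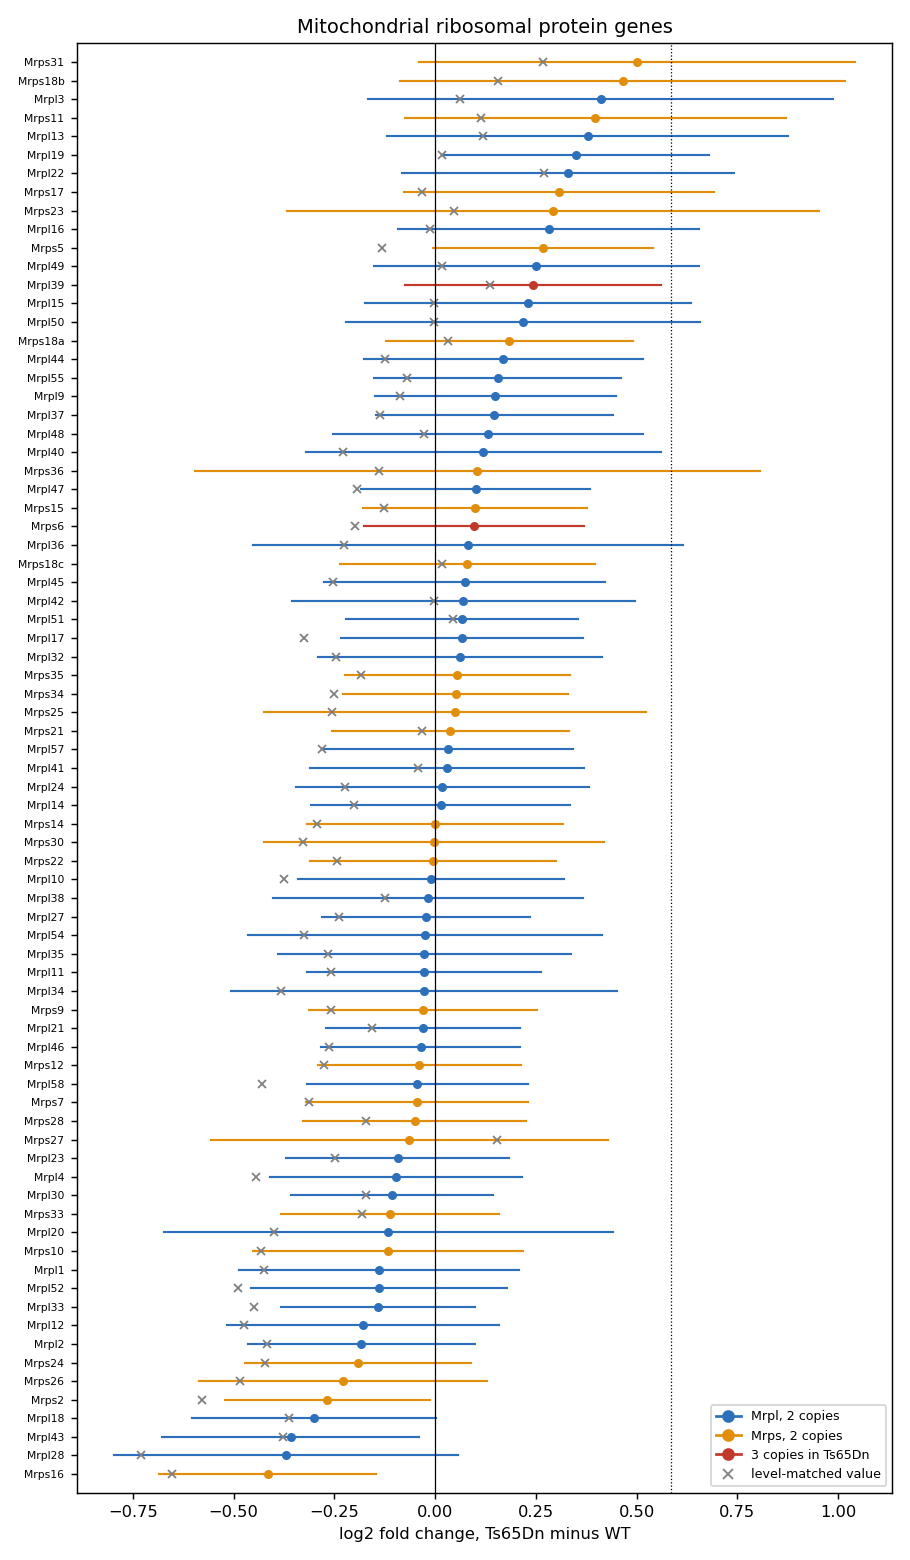
Fold change of each of the 77 subunit genes (log2, Ts65Dn minus WT, filled points) with its 95% interval from limma, and its level-matched value (grey crosses); the dotted line marks 0.585. Intervals of 73 genes include 0, and most crosses lie to the left of their points.

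In the small subunit, the counterparts of bacterial proteins gave both the smallest p among the 77 genes and the only Ts65Dn values that were all above those of WT. Mrps16 was at 7.68, 7.76, 7.77 and 7.77 in Ts65Dn and at 8.06, 8.04, 8.43 and 8.11 in WT, with every Ts65Dn array below every WT array. Its fold change was -0.42 (SE 0.12, limma adjusted p = 0.0600), which did not pass. Mrps2 was at 6.58, 6.80, 6.67 and 6.85 against 7.10, 6.86, 6.99 and 7.02, again without overlap, with a fold change of -0.27 (limma adjusted p = 0.130). Mrps5, a subunit of the entry side for messenger RNA, was at 7.54, 7.43, 7.41 and 7.79 against 7.33, 7.14, 7.29 and 7.34, without overlap in the other direction (fold change 0.27, limma adjusted p = 0.149). On the second probe set of Mrps5 the groups overlapped, at 7.25, 6.96, 7.06 and 7.08 against 7.12, 7.26, 7.04 and 6.54 (fold change 0.10). The direction of Mrps5 on the brightest probe set turned with level matching, to -0.13. With each array centred on its median Mrps16 was at -0.21 and Mrps2 at -0.06. In all, 1 of the 77 subunits had every Ts65Dn array above and 3 every Ts65Dn array below the WT arrays, beside 6.81% and 15.9% of all genes.

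The other bacterial counterparts named by the smallest p were Mrps11 (fold change 0.40), Mrps17 (0.31) and Mrps24, the counterpart of S3 (-0.19), with limma adjusted p-values of 0.204, 0.224 and 0.293. Their direction was not stable: Mrps11 was at -0.0080 without WT arrays 2 and 3, Mrps17 at 0.13 without WT array 2 and -0.03 with level matching, and Mrps24 at 0.01 with median centring. Mrps12, which lies at the decoding centre where codon and transfer RNA pair, was chosen after its values were seen, for its role. It was at 8.42, 8.47, 8.43 and 8.68 in Ts65Dn and at 8.46, 8.54, 8.50 and 8.66 in WT, and its fold change was -0.04. Over the 16 small-subunit counterparts the median was -0.01, with 7 positive, 0 called and 2 at an unadjusted p under 0.05. The 10 small-subunit proteins without a bacterial counterpart had a median of 0.05, with 6 positive and 0 called, and 0 at an unadjusted p under 0.05. Over all genes 5.26% were called and 34.8% had an unadjusted p under 0.05.

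Mrps31 had the highest fold change of the 77 genes, and its groups overlapped. It was at 8.51, 8.79, 8.50 and 8.13 in Ts65Dn and at 8.34, 7.72, 7.37 and 8.50 in WT, a fold change of 0.50 (SE 0.25, limma adjusted p = 0.169). WT arrays 2 and 3 were low, and without both the fold change was 0.06. Mrps18b (0.47, limma adjusted p = 0.203) had the same low arrays and was at 0.10 without them. Mrps26 had a fold change of -0.23 (limma adjusted p = 0.320). Mrps36, which is now also known as a component of the oxoglutarate dehydrogenase complex and was given no place in the ribosome here, had the value 6.99 on WT array 2 and 8.82 on WT array 4, with 8.06 to 8.29 in Ts65Dn and a fold change of 0.10.

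In the large subunit, Mrpl19 was the subunit with the smallest p among those with a positive fold change. It was at 7.02, 7.18, 7.65 and 7.36 in Ts65Dn and at 6.91, 7.01, 7.09 and 6.81 in WT, so that Ts65Dn array 1 lay within the WT range. The fold change was 0.35 (limma adjusted p = 0.126). With each array centred on its median Mrpl19 passed as the only subunit, at 0.55 (limma adjusted p = 0.0482), beside 5.06% of all genes, whereas it was at 0.02 with level matching. Mrpl13 (0.38) and Mrpl22, at the exit of the peptide tunnel (0.33), had limma adjusted p-values of 0.243 and 0.222. Without WT arrays 2 and 3 Mrpl13 was at -0.07 and Mrpl22 at 0.28.

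Mrpl43 was at 5.64, 5.77, 5.71 and 5.72 in Ts65Dn and at 5.86, 5.88, 6.45 and 6.07 in WT, with every Ts65Dn array below the WT arrays (fold change -0.36, limma adjusted p = 0.111). Mrpl28 was at 7.45, 7.19, 7.45 and 7.60 against 7.24, 7.73, 8.11 and 8.09, where WT array 1 lay among the Ts65Dn arrays. Its fold change was -0.37 (limma adjusted p = 0.192), and without WT array 1 it passed at -0.55 (limma adjusted p = 0.0446), where 14.4% of all genes passed. Mrpl18, which binds 5S ribosomal RNA in bacteria (-0.30, limma adjusted p = 0.146), and Mrpl2, near the peptidyl transferase centre (-0.18, limma adjusted p = 0.311), did not pass. Mrpl2 was at 0.02 with each array centred on its median.

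The stalk proteins, which bring translation factors to the ribosome, were chosen after their values were seen, for their role. Mrpl12 had a fold change of -0.18 (limma adjusted p = 0.406), Mrpl11 of -0.03 and Mrpl10 of -0.01. With level matching they were at -0.47, -0.26 and -0.38, none of which passed. Over the 30 large-subunit counterparts of bacterial proteins the median was -0.02, with 14 positive. The 20 large-subunit proteins without a bacterial counterpart, among which Mrps18a and Mrps30 are counted by their place in the structure, had a median of 0.07, with 13 positive. With level matching the medians were -0.23 and -0.18 for the small-subunit classes, with and without bacterial counterparts, and -0.24 and -0.13 for the large-subunit classes. They were, without WT arrays 2 and 3, -0.08, -0.15, -0.08 and -0.07 in the same order.

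For 2 of the 8 genes with more than 1 probe set the signs differed. Mrpl27 had fold changes of -0.02 and 0.07, and Mrpl41 of 0.03 and -0.06. The pairs of Mrpl23, Mrpl47, Mrpl51, Mrps33, Mrps36 and Mrps5 had the same sign. The 8 diploid subunits of MMU17 all lie beyond the trisomic end of that chromosome, and their fold changes ran from -0.37 for Mrpl28 to 0.47 for Mrps18b, with 4 positive.

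The subunits varied more among the WT arrays than among the Ts65Dn arrays. The mean over the 77 genes was 8.21, 8.22, 8.20 and 8.18 in Ts65Dn arrays 1 to 4 and 8.20, 7.96, 8.11 and 8.39 in WT arrays 1 to 4. All 4 Ts65Dn arrays lay inside the WT range and close to each other. The SD over 4 mice was larger in WT than in Ts65Dn for 70 of the 77 genes (90.9%), beside 67.3% of all genes, with median SDs of 0.25 and 0.12 for the subunits and 0.23 and 0.17 for all genes. The same held for 30 of 34 complex I subunits (88.2%, median SDs 0.147 and 0.0566) and for 46 of 60 cytosolic ribosomal proteins (76.7%).

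WT array 2 held the lowest of the 8 values for 32 subunits (41.6%, beside 9.93% of all genes), and WT array 4 the highest for 33 (42.9%, beside 8.12%). WT array 3 was the lowest for 20 subunits (26.0%, beside 18.6% of all genes) and the highest for 16 (20.8%, beside 30.6%). Examples of low values on WT array 2 are Mrpl42, at 10.42 against 11.03 to 11.33 on the other WT arrays, and Mrpl36, at 6.50 against 7.13 to 7.88. Both were chosen after their values were seen. WT arrays 2 and 3 were both below all other arrays for 20 subunits, among them Mrpl3, Mrpl13, Mrps11, Mrps18b and Mrps31, beside 13.1% of all genes. Those 5 genes have the highest fold changes of the 77.

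**Figure D3:**
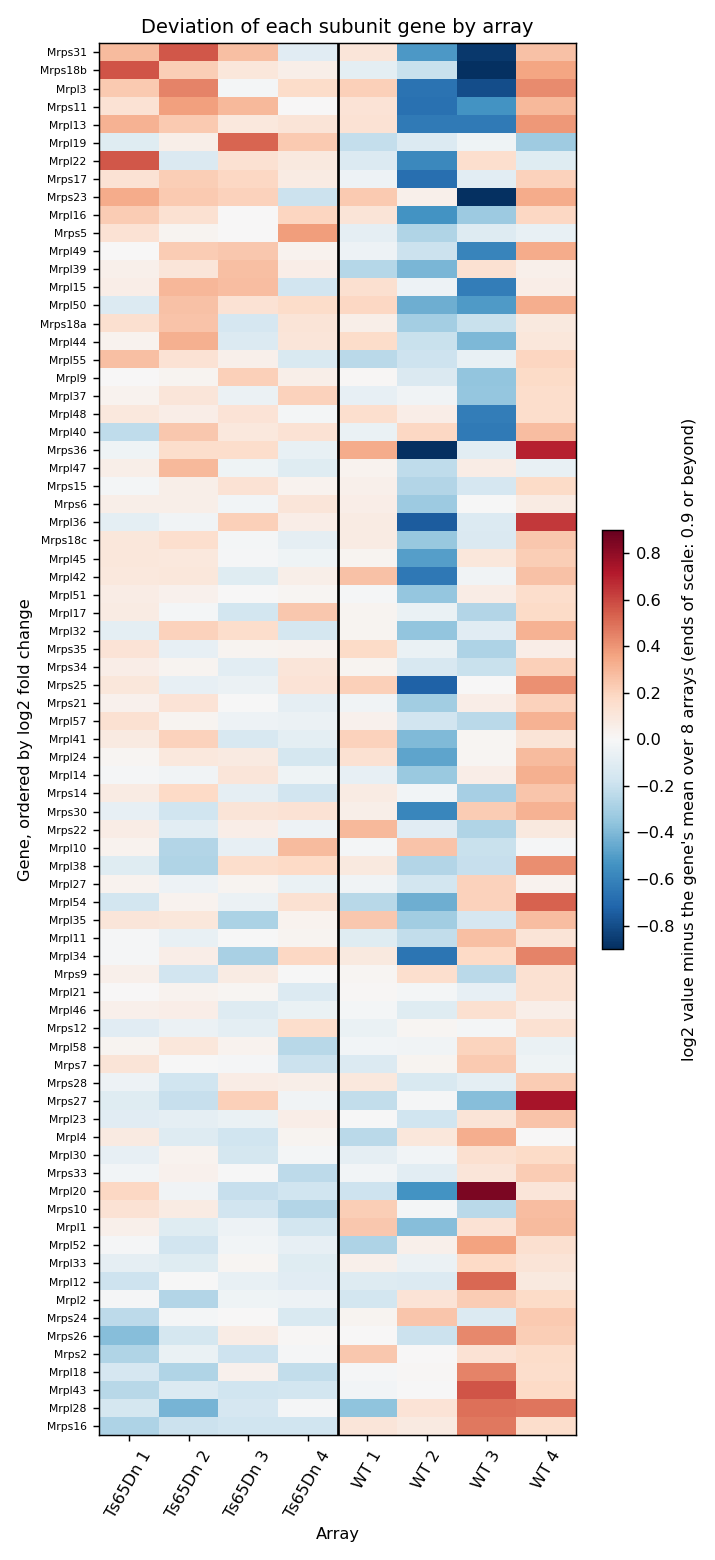
Deviation of each of the 77 subunit genes from its own mean over the 8 arrays (log2), with genes ordered by fold change and arrays in columns. The 4 Ts65Dn columns are pale, WT array 2 is low for 32 genes and WT array 4 high for 33, and WT array 3 is low in the upper rows and high in the lower rows.

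Because fold changes moved with level on these arrays, the subunits were compared with other genes of like level. Between log2 levels of 7 and 8 the 28 subunits had a median of 0.06, beside 0.36 for the 1301 other genes. Between 8 and 9 the 22 subunits were at 0.01, beside 0.26, and above 9 the 16 subunits were at 0.02, beside 0.10. Below 7 the 11 subunits were at -0.06, beside -0.16. Positive fold changes were held by 18, 11 and 9 of the subunits in the bins above 7, and by 86.0%, 82.4% and 72.3% of the other genes.

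**Figure D4:**
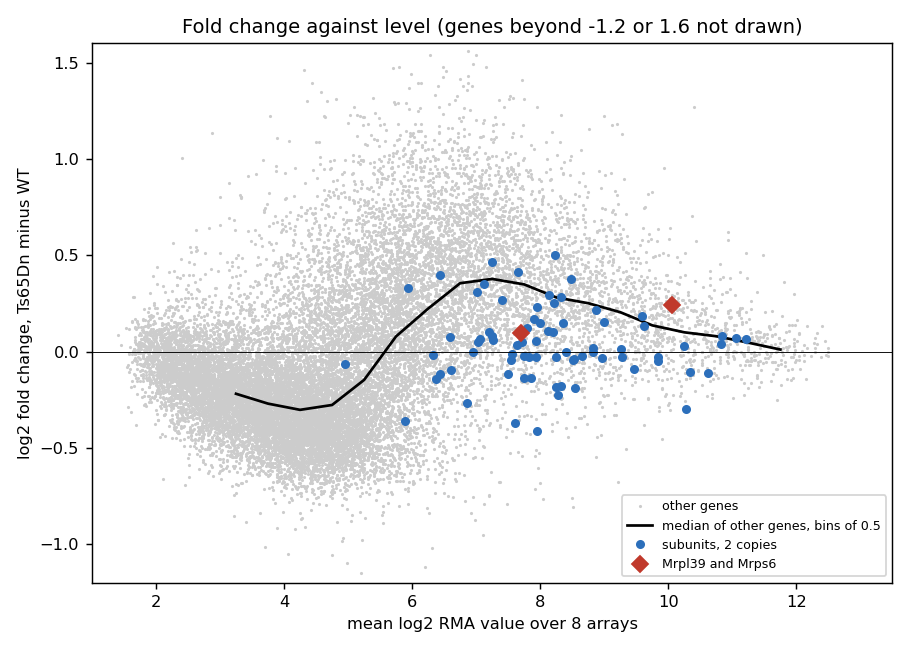
Fold change (log2, Ts65Dn minus WT) against mean log2 RMA value for the 75 diploid subunits (circles), Mrpl39 and Mrps6 (diamonds) and all other genes (grey points), with the median of the other genes in bins of 0.5 (line). Between 7 and 9 most subunits lie below the line, among them Mrps6 at a level of 7.70. Mrpl39, at a level of 10.06, lies above it.

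Level-matched values were made by taking 100 genes of like mean level, neither trisomic nor subunits, and subtracting their median deviation from each array's value. On this scale 63 of the 77 subunits had a negative fold change and 14 a positive one, with a median of -0.22 beside 0.00 over all genes. An unadjusted p under 0.05 was held by 22 subunits, all lower, beside 9.48% of all genes lower and 11.4% higher. Every Ts65Dn array was below every WT array for 14 subunits, among them Mrps6, beside 6.5% of all genes, and above it for 0, beside 6.28%. By limma 0 subunits passed, beside 0.451% of all genes, and the smallest adjusted p was 0.0514, for Mrps2 (level-matched fold change -0.58). Without WT array 1, 2 subunits passed as lower, Mrpl28 and Mrps2, beside 3.08% of all genes. Mrps16 was at -0.65 (limma adjusted p = 0.0729) and Mrpl28 at -0.73 (limma adjusted p = 0.151). Among positive values, Mrpl22 and Mrps31 were both at 0.27.

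Level-matched means over the 77 subunits were 8.08 ± 0.02 in Ts65Dn and 8.28 ± 0.14 in WT (log2, SD, n = 4), and ran from 8.06 to 8.10 and from 8.14 to 8.44. On this scale Mrpl39 had a fold change of 0.14 and Mrps6 of -0.20. Relative to the mean of the diploid subunits, Mrpl39 was then higher in every Ts65Dn array than in every WT array, by 0.34 (exact permutation p = 0.0286, the smallest that 70 splits can give, and 0.0571 adjusted over the 2 genes). For Mrps6 the same difference was 0.00 (exact permutation p = 1.0).

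The direction of the family thus turned with the scaling. With each array centred on its median 71 of the 77 subunits were positive (median 0.23, beside 0.10 over all genes). With quantile normalization once more 18 were positive (median -0.18, beside -0.04), and with cyclic loess also 18 (median -0.14, beside 0.01). Without WT arrays 2 and 3 the deposited values gave 16 positive subunits and a median of -0.09, beside -0.05 over all genes. In that setting 0 subunits were called, beside 1 of all 19938 genes. An unadjusted p under 0.05 was held by 5 subunits, beside 16.8% of all genes. Level matching without WT arrays 2 and 3, chosen after the data were seen, gave 6 positive subunits and a median of -0.17. The median of the subunits lay above that of all genes in the deposited and median-centred values and below it in the other settings named here. Median centring moved every fold change by the same amount, so it kept the order of the deposited values. Beside all genes above the median level, where all 77 subunits lie, the deposited median was lower, at 0.03 against 0.11.

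**Figure D5:**
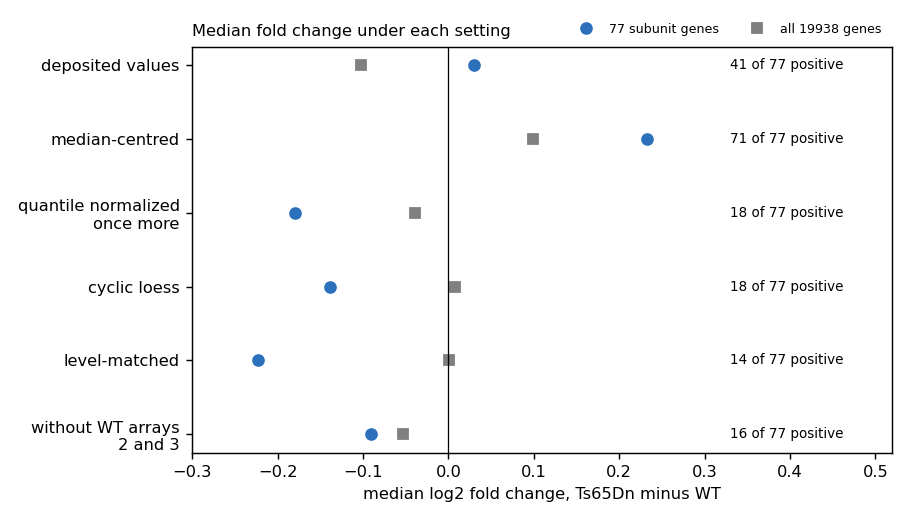
Median fold change (log2, Ts65Dn minus WT) of the 77 subunit genes (circles) and of all 19938 genes (squares) under 6 settings, with the number of positive subunits at the right. The circle moves from 0.23 with median centring to -0.22 with level matching.

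Genes of the same pathway were taken from lists of factors that build or run the mitochondrial ribosome, fixed with results of these data known. Of 12 measured initiation, elongation, termination and recycling factors 0 were called, 3 had an unadjusted p under 0.05, all higher, and 10 had a positive fold change (median 0.27, level-matched -0.03). Over all genes 5.26% were called and 34.8% had an unadjusted p under 0.05, 12.3% higher. The median of these factors was 0.02 without WT arrays 2 and 3, with 6 positive. The recycling factor Mrrf was at 7.19, 6.999, 6.80 and 7.60 in Ts65Dn and at 6.71, 6.43, 5.69 and 6.35 in WT, without overlap, a fold change of 0.85 (limma adjusted p = 0.0529). The initiation factor Mtif2 was at 8.51, 8.77, 8.69 and 8.68 against 8.28, 7.96, 8.22 and 8.36, also without overlap (fold change 0.46, limma adjusted p = 0.0550). With level matching Mrrf was at 0.51 and Mtif2 at 0.17. Gfm2, which acts with Mrrf in recycling, was at 0.62 (limma adjusted p = 0.110) and at 0.15 without WT arrays 2 and 3.

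Of 27 assembly and ribosomal RNA factors 1 was called, lower (beside 5.26% of all genes), and 9 had an unadjusted p under 0.05 (33.3%, beside 34.8%), 5 higher and 4 lower. It was Rpusd3, a pseudouridine synthase family member, at 5.00, 5.08, 4.95 and 5.18 in Ts65Dn and 5.67, 5.74, 5.65 and 5.32 in WT, so that it fell by 0.54 on the log2 scale (limma adjusted p = 0.0470). Without WT arrays 2 and 3 its fold change was -0.44 (limma adjusted p = 0.217), and with level matching -0.41 (limma adjusted p = 0.103). Tfb1m, the methyltransferase of the small ribosomal RNA, was at 7.11, 6.98, 7.06 and 7.04 in Ts65Dn and at 6.54, 4.79, 4.29 and 6.41 in WT. Its fold change was 1.54 (limma adjusted p = 0.0578), and without WT arrays 2 and 3 it was 0.57 (limma adjusted p = 0.174). The helicase Dhx30 was at 0.54 (limma adjusted p = 0.0515), with every Ts65Dn array above the WT arrays.

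Of 9 messenger RNA and membrane factors, 19 aminoacyl-tRNA synthetases of mitochondria and 5 transcription factors of mitochondrial DNA 0 were called. Over all genes the share called was 5.26%. In the same order 1, 4 and 2 genes had an unadjusted p under 0.05 (11.1%, 21.1% and 40.0%, beside 34.8% of all genes). The medians of these lists were 0.16, 0.13 and 0.05. Without WT arrays 2 and 3 these medians were 0.01, 0.02 and -0.17. Mtpap, the mitochondrial poly(A) polymerase, had a fold change of 1.07 (limma adjusted p = 0.0522), Supv3l1 of 0.32 and Pnpt1 of 0.47. These were 0.50, 0.13 and -0.19 without WT arrays 2 and 3. The alanyl synthetase Aars2 was at -0.51 (limma adjusted p = 0.0529), Vars2 at -0.33 and Rars2 at 0.62, and without those arrays at -0.36, -0.24 and 0.21. Tfam, which packages mitochondrial DNA, was at 0.53 (limma adjusted p = 0.0710), Tfb2m at 0.74 and the RNA polymerase Polrmt at -0.18, and without those arrays at 0.24, 0.17 and -0.17. Of 4 measured subunits without an Mrp symbol 0 were called, and 0 had an unadjusted p under 0.05, with Ptcd3 at 0.55, Chchd1 at -0.15 and Gadd45gip1 at 0.03. Ptcd3 was at -0.02 without WT arrays 2 and 3, and Gadd45gip1 at -0.32 with level matching.

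For comparison, and beside the 5.26% called and 34.8% under an unadjusted p of 0.05 over all genes, of 60 cytosolic ribosomal protein genes 0 were called and 6 were under an unadjusted p of 0.05; their fold changes had a median of -0.01 (level-matched -0.04), and of 34 complex I subunits 0 were called and 1 was under an unadjusted p of 0.05, around a median of -0.04 (level-matched -0.09). The level-matched median of the mitochondrial ribosomal proteins was -0.22. Negative level-matched fold changes were held by 63 of these 77 genes, by 28 of the 34 complex I subunits and by 39 of the 60 cytosolic ribosomal proteins. Over all 19938 genes 9963 were negative on this scale. The differences between these families were not tested.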

How the data were processed

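Soleus RNA of 4 Ts65Dn and 4 WT mice was hybridised to 1 array for each animal. RNA was column-extracted and amplified to biotinylated cDNA with a whole-transcript system, per the labels' protocols. The authors' tools, per the submitters' processing notes, were Affymetrix Expression Console 1.1 and RMA. The deposited values are log2 values, a scale taken from the numbers themselves. The annotation release is not given here. Depth has no meaning for arrays, whose number limits precision.

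Of 35556 probe sets 21789 have 1 gene symbol, 1621 several and 12146 none. Symbols were updated by Entrez identifier with RefSeq GRCm38.p6. Its gene order gave the trisomic segments, from Mrpl39 to the end of MMU16 and through Pde10a on MMU17. The test of Ts65Dn against WT was two-sided and without covariates (limma 3.58.1, lmFit and eBayes, under R 4.3.3). Mrpl39 and Mrps6 were compared with the diploid subunits by exact permutation tests. P-values rest on the spread between arrays, with 1 array per mouse, so differences between mice and between arrays cannot be told apart in it.

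Members and lists were chosen with earlier results of these data known. Named were Mrpl39, Mrps6, members past the threshold, the 8 with the smallest p in each direction, members whose probe sets disagree, and up to 3 genes per list. Other members were chosen after their values were seen. Of the lists, the genes not measured were not analysed here.

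The limma step was tested on simulated data. It recovered 79% of log2 changes of 1 and 98% of log2 changes of 2, and 3.28% of its calls were false. The simulated noise was independent between genes and arrays and held no shifts of whole arrays or of levels. A change of 0.585 was not simulated, so the power to see a 3 to 2 ratio is not given by it. Alternatives were scalings, a filter, probe set means, a replicate block, array weights, a variance trend and arrays left out; leaving out arrays together with level matching was added after the data were seen.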

Additional observations from a re-analysis of the deposited data

Results flagged for a closer look

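Mrpl2 was at 7.99 on Ts65Dn array 2, and the nearest of the other 3 Ts65Dn arrays was at 8.20. The gap was 0.856 of the range of the group, above the 95% critical value of Dixon's test for 4 samples. This was the only such array among the 44 groups examined, of which chance alone picks out about 1 in 20. Its cause was not tested.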

How the results depend on the processing

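Without level matching, counts of called subunits stayed at 0 in each direction except for 1 higher (Mrpl19) with each array centred on its median and 1 lower (Mrpl28) without WT array 1; leaving out single arrays gave 0 to 1 called lower. The median fold change of the subunits was -0.18 with quantile normalization, 0.23 with median centring, -0.14 with cyclic loess, -0.22 with level matching and -0.091 without WT arrays 2 and 3. Leaving out single arrays gave medians from -0.05 to 0.12. With level matching 0 were called, except for 2 lower (Mrpl28 and Mrps2) without WT array 1. Combined with level matching, settings chosen after the data were seen, leaving out WT arrays 2 and 3 gave -0.17, and leaving out single arrays -0.25 to -0.15 (-0.209, -0.212, -0.208 and -0.216 without Ts65Dn arrays 1 to 4, and -0.236, -0.247, -0.150 and -0.184 without WT arrays 1 to 4).

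The direction turned for Mrps6 with quantile normalization (-0.17), cyclic loess (-0.11), level matching (-0.20) and without WT arrays 2 and 3 (-0.020), and relative to the diploid subunits with quantile normalization (-0.0055) and level matching (-0.00023). It turned for Mrps5 with quantile normalization (-0.0093) and level matching (-0.13), and for Mrps17 with level matching (-0.033). Without WT arrays 2 and 3 it turned for Mrps11 (-0.0080), Mrpl13 (-0.069) and Mrpl41 (-0.15). Median centring turned Mrps24 (0.011), Mrpl2 (0.019) and Mrpl27 (0.18). The mean of all probe sets turned Mrpl27 (0.022) and Mrpl41 (-0.016). Mrpl41 also turned with quantile normalization (-0.036), cyclic loess (-0.090), level matching (-0.041) and array weights (-0.038). Leaving out single arrays gave -0.082 to 0.043 for Mrpl27 and -0.10 to 0.10 for Mrpl41. The cause was not tested.

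Over all genes 1049 were called, against 0 with the replicate block, 1 with quantile normalization, 135 with cyclic loess, 90 with level matching, 236 with array weights, 1 without WT arrays 2 and 3, 436 among genes above the median level, and 0 to 2865 without single arrays. Same-numbered arrays did not deviate together (correlations 0.01 to 0.09), so the numbers were not taken as pairs, and not every array correlated best with its own number. With the replicate block the median of the subunits was 0.03 and 0 were called; Mrpl39 relative to the diploid subunits was at 0.21 (exact permutation p = 0.125, the smallest that 16 sign changes can give).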
